A study of Mus musculus with 65 samples.

Results

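The genes of the proteasome were followed through DNA replication in mouse embryonic stem cells. They were taken as the protein-coding mm10 genes whose symbol is Psma, Psmb, Psmc, Psmd, Psme, Psmf or Psmg followed by digits only, which gave 48 genes. A transcription start site (TSS) within 1000 bp of the gene start was found for 47 of them, among 18217 protein-coding genes and 31995 TSSs in all. The exception was Psma3, an alpha subunit of the core, which had no TSS within reach and has no values here. The symbols Psmc3ip, Psme2b and Psme3ip1 were left out by the rule.

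The signal is from repli-ATAC-seq of E14TG2a cells, a line of strain 129/Ola kept on gelatin in serum with LIF. EdU at 20 µM for 10 min marked newly made DNA, the Tn5 transposase cut accessible chromatin, and the EdU-carrying fragments were captured, while the uncaptured (unbound) fragments stand for the chromatin of the whole population. Triptolide, DRB or DMSO was given for 2 h before EdU, and cells were collected either after a further 2 h in 10 µM thymidine (2 h groups) or at the end of the pulse (nascent groups), which makes 6 EdU groups and 6 unbound groups of 3 libraries each. The sources used here give neither the doses nor whether an inhibitor was present in the chase. Triptolide targets the XPB subunit of TFIIH and so initiation by RNA polymerase II, and DRB targets the CDK9 kinase and so elongation. A separate pair of groups without inhibitor, 2 h and nascent, had 2 libraries each, with 100 Drosophila S2 cells carrying EdU mixed into every sample. The other data used are 6 peak lists, for nascent, 30 min, 1 h, 2 h and steady-state chromatin and for RNA polymerase II phosphorylated on serine 5 (S5P), each being 1 list without replicates.

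The proteasome degrades proteins that carry ubiquitin chains. Its core particle is a barrel of alpha rings, which gate the entrance, and beta rings, which hold the proteolytic sites. A regulatory particle caps the barrel: its base of ATPases unfolds the substrate, and its non-ATPase subunits bind and remove ubiquitin. Immune and thymic cells exchange some beta subunits, other activators replace the cap, and dedicated chaperones assemble both particles. Human embryonic stem cells are known for high proteasome activity, and most subunits are made in all cells.

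Promoter sequences show what kind of start site these genes have. RefSeq promoters of GRCm38.p6, from 250 bases before to 50 bases after the gene start, were matched for 39 of the 47 genes. The 4 stretches below are the 150 bases before the start of 4 genes whose signal is followed in detail, with capitals marking matches to any of 11 short motifs searched on both strands. Psmd8 lies on the minus strand at chr7:29180674-29180823, Psmc4 on the minus strand at chr7:28050093-28050242, Psmb3 on the plus strand at chr11:97703284-97703433 and Psma5 on the plus strand at chr3:108256776-108256925.
Psmd8: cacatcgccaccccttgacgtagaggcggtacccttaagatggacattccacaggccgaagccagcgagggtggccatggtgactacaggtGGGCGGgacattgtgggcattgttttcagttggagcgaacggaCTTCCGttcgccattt
Psmc4: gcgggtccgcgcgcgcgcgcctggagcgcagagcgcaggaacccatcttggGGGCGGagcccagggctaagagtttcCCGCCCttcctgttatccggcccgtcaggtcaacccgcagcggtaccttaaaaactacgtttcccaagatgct
Psmb3: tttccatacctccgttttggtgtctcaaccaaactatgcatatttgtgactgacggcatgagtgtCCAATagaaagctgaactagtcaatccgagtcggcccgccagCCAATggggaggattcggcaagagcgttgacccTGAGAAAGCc
Psma5: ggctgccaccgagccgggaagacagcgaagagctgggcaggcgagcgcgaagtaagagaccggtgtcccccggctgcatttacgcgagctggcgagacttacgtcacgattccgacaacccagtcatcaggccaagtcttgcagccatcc
The Psmd8 stretch held GGGCGG (Sp and Klf factors) and, on the other strand, CGGAAG (ETS factors). That of Psmc4 held GGGCGG on both strands, that of Psmb3 held CCAAT (NF-Y) at 2 places and TGAGNNNGC (antioxidant response element), and that of Psma5 held none of the 11.

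Over the full 300 bases, CGGAAG was found in 21 of 39 proteasome promoters (53.8%), against 16.9% of all 32851 promoters. GGGCGG was found in 23 (59.0%, against 35.7%), TGAGNNNGC in 11 (28.2%, against 17.6%) and CCAAT in 13 (33.3%, against 37.4%). The related element TGACNNNGC was found in 6 (15.4%, against 12.4%), CACGTG (E-box) in 4 (10.3%, against 7.15%), the box TATAAA of core promoters in 4 (10.3%, against 13.6%), GCATGCGC (nuclear respiratory factor) in 3 (7.69%, against 2.71%) and AAGATGGCG (YY1) in 2 (5.13%, against 1.40%). TGACGTCA (CREB and ATF) and CTACAATTC (Thap11 and Zfp143) were not found in these windows, and occurred in 1.79% and 0.356% of all promoters. The median GC content was 57.3% in proteasome promoters and 52.7% in all promoters. These are letter matches and were not tested. A second gene starts within 1 kb in the opposite direction at 10 of the 47 genes, among them Rnf31 at Psme2, Tap1 at Psmb9, Dnajc2 at Psmc2 and Sirt3 at Psmd13. At 8 genes (Psma2, Psma4, Psma5, Psma7, Psmc2, Psmc3, Psmc5 and Psmg2) the 1 kb window used for the signal is also that of another TSS, and there the 2 start sites cannot be told apart. Psmb9, Psmd3, Psmd10, Psmd13 and Psme2 also have another TSS within 1 kb, but its nearest window is a different one. Windows overlap, so theirs may hold that second start site too, as the window of Psmb9 holds the TSS of Tap1.

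Signal is given as RPM, the read count scaled to the size of the library, in the 1 kb window nearest the TSS. The EdU libraries held 1.30 M to 5.55 M reads, and the median proteasome gene had 2 to 17 reads per library, so single values are coarse and 0 to 6 of the 47 genes had no read in a given EdU library. The unbound libraries were mostly deeper (2.35 M to 14.4 M reads). Windows away from peaks also differed between groups: they averaged 0.233 to 0.247 RPM at 2 h with triptolide, 0.21 to 0.226 with DRB and 0.184 to 0.211 with DMSO, against 0.330 to 0.337, 0.339 to 0.351 and 0.308 to 0.310 RPM in nascent triptolide, DRB and DMSO libraries. Their part in the results below was not tested beyond the rescaled fits given with each count. In such bulk libraries a signal in fewer cells and a weaker signal per cell cannot be told apart. Nothing in the labels ties a library to its own culture, so a p-value here measures spread between libraries that may be technical. Of 10 stem cell marker genes, 9 had a nascent peak at the TSS and 8 an S5P peak, against 1 of 3 primitive endoderm, 0 of 3 trophectoderm and 1 of 5 fibroblast genes with a nascent peak. An S5P peak was listed at 0 primitive endoderm, 1 trophectoderm and 1 fibroblast gene. The steady-state list held a peak at 9 of 10 stem cell, 1 of 3 primitive endoderm, 3 of 3 trophectoderm and 5 of 5 fibroblast genes.

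Proteasome start sites ranged widely in openness. Over the 18 EdU libraries the mean was highest at Psmb3 (6.64 RPM), Psma5 (5.16 RPM) and Psmd13 (4.83 RPM), and lowest at Psmf1 (0.230 RPM), Psmd9 (0.770 RPM) and Psmg3 (1.15 RPM). Within the other roles the highest means were 4.43 RPM at the ATPase Psmc6, 4.08 RPM at the activator Psme4, 3.93 RPM at the core chaperone Psmg4, 3.81 RPM at the base chaperone Psmd10 and 2.32 RPM at the immunoproteasome gene Psmb9. The windows have 1 length, but a level is that of a window, which may hold more than the named start site. The window of Psma5 is also that of another TSS, and that of Psmb9 also holds the TSS of Tap1. Psmf1 was read at a TSS 13 bp from its gene start but 2876 bp from the start of its RefSeq promoter.

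**Figure D1:**
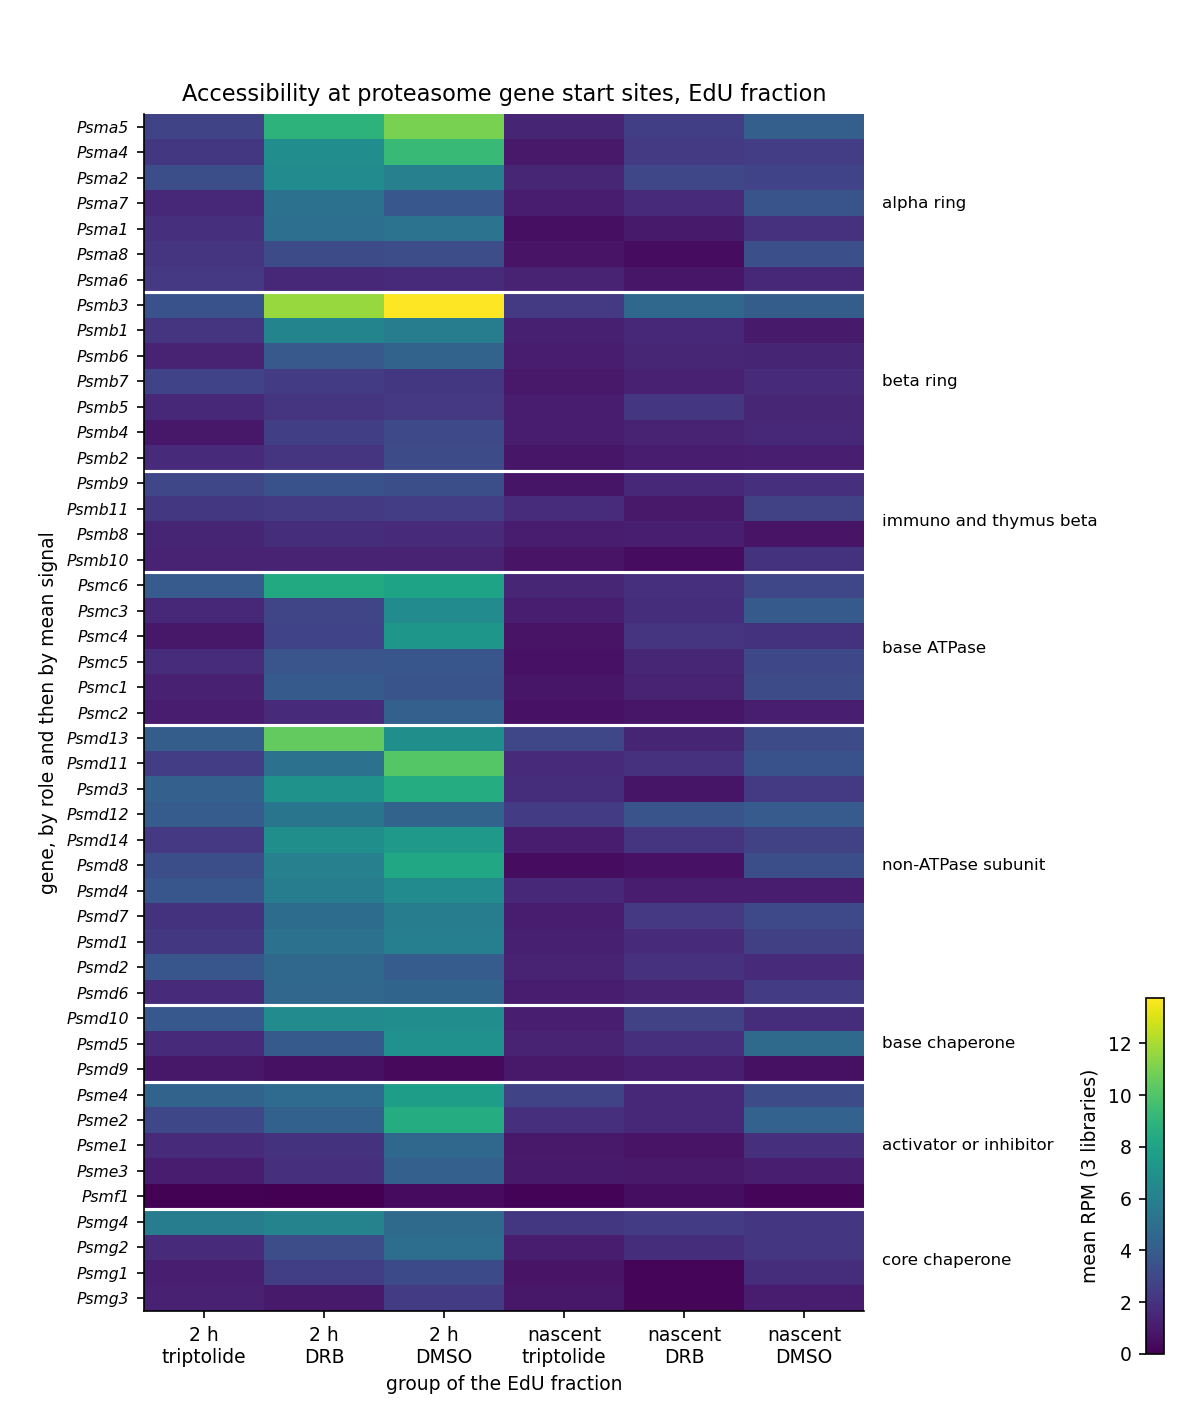
Mean signal in RPM (colour, 3 libraries per group) at 47 proteasome genes (rows, by role) in the 6 EdU groups (columns, 2 h groups left of nascent groups). The 2 h DRB and 2 h DMSO columns are the brightest, led by Psmb3, and the nascent triptolide column is dark throughout.

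The median proteasome gene, taken in each library, stood at 2.00 ± 0.133 RPM at 2 h with triptolide, 3.78 ± 0.373 RPM with DRB and 4.86 ± 0.302 RPM with DMSO (SD, n = 3 each). In nascent chromatin it stood at 1.01 ± 0.0922 RPM with triptolide, 1.59 ± 0.203 RPM with DRB and 2.04 ± 0.326 RPM with DMSO (SD, n = 3 each). The 2 h triptolide level was thus near that of nascent DMSO chromatin. The median protein-coding gene had 1.53, 2.71 and 3.22 RPM at 2 h and 0.95, 0.975 and 1.61 RPM in nascent chromatin, in the same order of treatments.

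The first comparison asks how far proteasome start sites regain openness during the 2 h that follow replication. With DMSO, 26 of 47 genes were higher at 2 h than in nascent chromatin and none was lower, against 31.2% of all 29799 TSSs tested and 7466 of 17325 protein-coding genes that were higher and 1.64% of TSSs that were lower. With DRB 28 were higher and none lower (35.1% of all TSSs and 8253 coding genes higher, 1.97% of TSSs lower), and with triptolide 7 were higher and none lower (14.1% of all TSSs and 3312 coding genes higher, 0.389% of TSSs lower). The tests were by limma with Benjamini-Hochberg adjustment over all TSSs, on log2(RPM + 1), and all 47 genes passed the filter on low values. On that scale the median difference of the 47 genes was 0.46 with triptolide, 0.97 with DRB and 0.90 with DMSO, beside 0.24, 0.44 and 0.34 over all TSSs and 0.41, 0.79 and 0.70 over protein-coding genes. Coding genes with an S5P peak had medians of 0.63, 1.14 and 1.02. Whether called or not, 44 of the 47 proteasome genes had a positive difference under each treatment. The medians of all TSSs and of protein-coding genes were positive too, and their share of positive differences was not counted.

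By role, the non-ATPase subunits of the cap had the most calls with DMSO, 8 of 11, followed by 4 of 7 alpha subunits, 4 of 7 constitutive beta subunits, 4 of 5 activators and inhibitors, 3 of 6 ATPases, 2 of 4 core chaperones and 1 of 3 base chaperones. None of the 4 immunoproteasome and thymoproteasome subunits was called with DMSO, and their median difference was 0.24. With DRB 10 of 11 non-ATPase subunits, 6 of 7 alpha, 3 of 7 beta, 1 of 4 immune or thymic beta, 3 of 6 ATPases, 1 of 3 base chaperones, 2 of 5 activators and inhibitors and 2 of 4 core chaperones were higher. The 7 genes higher with triptolide were Psmd8, Psmd3 and Psmd2 of the cap, the ATPase Psmc6, the base chaperone Psmd10, the core chaperone Psmg4 and the immune subunit Psmb9. That triptolide count was 4 without nascent triptolide replicate 2 and 3 without 2 h triptolide replicate 3. With each library centred on its median TSS the counts were 1 with triptolide, 14 higher and 1 lower with DRB, and 9 with DMSO. With each library scaled to its background windows, 22 genes were higher with triptolide and 43 with DRB. Under that scaling the DMSO count stayed within 1.5 times of the count reported above.

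**Figure D2:**
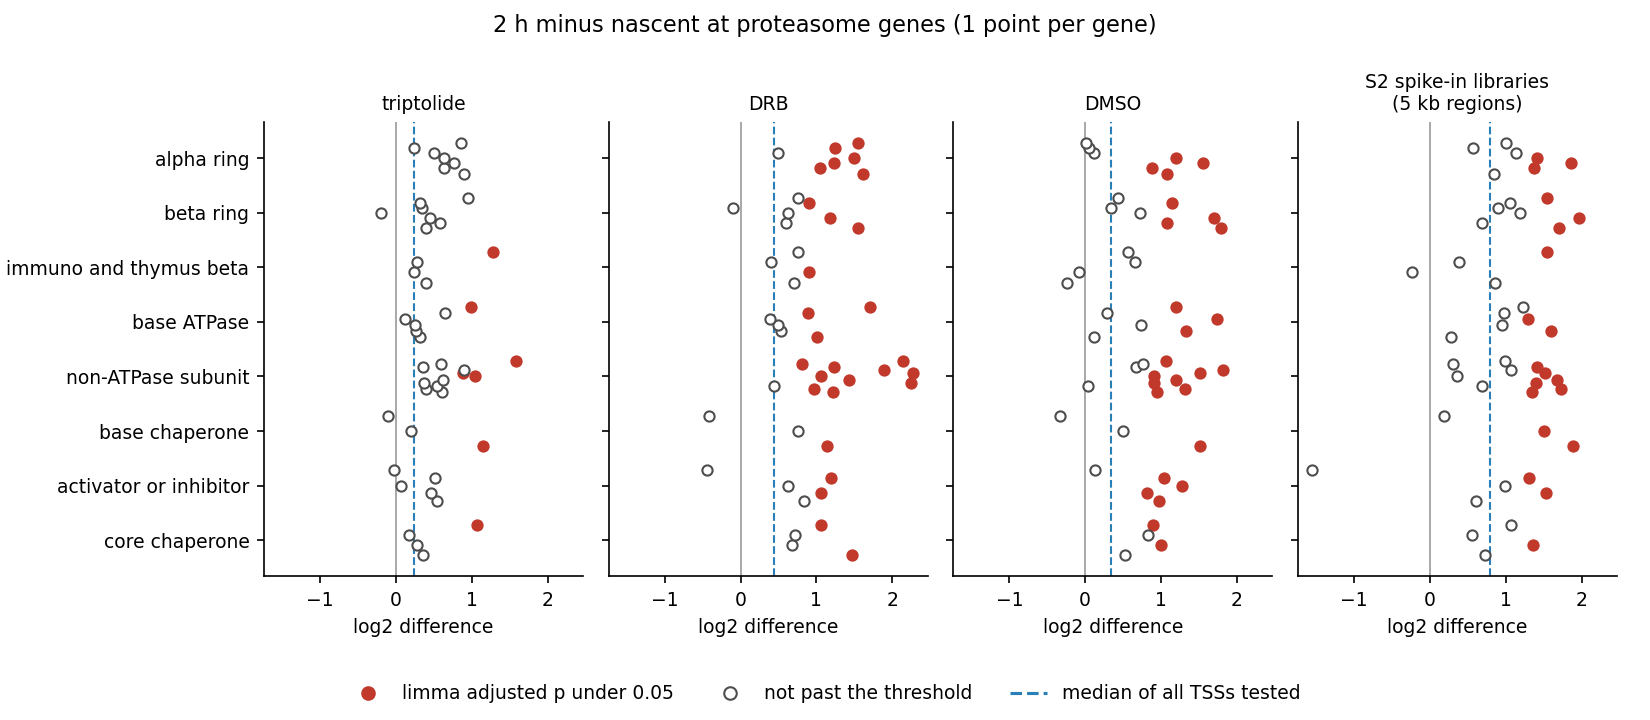
Log2 difference, 2 h minus nascent (x axis, 1 point per gene, by role on the y axis), with triptolide, DRB and DMSO in the EdU fraction and in the S2 spike-in libraries; filled points passed limma at an adjusted p under 0.05 and the dashed line is the median of all TSSs tested. Filled points are all to the right of 0 and number 7, 28, 26 and 20.

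The next comparison asks what blocking transcription before the pulse does to these start sites, first in nascent chromatin. With triptolide 11 of 47 genes were lower than with DMSO and none was higher, against 11.6% of all TSSs and 2796 of 17325 protein-coding genes lower and 0.45% of TSSs higher. With DRB 4 were lower and none higher (3.37% of all TSSs lower and 0.282% higher). The median difference of the 47 genes was -0.52 with triptolide and -0.33 with DRB, beside -0.23 and -0.18 over all TSSs and -0.37 and -0.26 over protein-coding genes. The 11 genes were 4 alpha subunits (Psma4, Psma5, Psma7 and Psma8), 3 ATPases (Psmc1, Psmc3 and Psmc5), the cap subunits Psmd7 and Psmd8, the base chaperone Psmd5 and the activator Psme2, and 5 of them (Psma4, Psma5, Psma7, Psmc3 and Psmc5) have a window shared with another TSS. No constitutive beta subunit passed the test, and the 7 differences lay between -0.47 and 0.19. The 4 genes lower with DRB were Psma8, Psmd8, Psmd3 and Psme2. Both inhibitors are set against the same 3 DMSO libraries. The triptolide count was 4 without nascent DMSO replicate 2, 7 without nascent triptolide replicate 2, and 2 in a fit of these groups alone or with libraries centred on the median TSS. The DRB count was 2 without any 1 of the DMSO libraries, 1 without DRB replicate 1 and 0 in a fit of these groups alone, and 0 by limma-voom.

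At 2 h, 26 of 47 genes were lower with triptolide than with DMSO and none was higher, against 28.6% of all TSSs and 6882 of 17325 protein-coding genes lower and 2.72% of TSSs higher. The median difference was -0.90, beside -0.29 over all TSSs, -0.62 over protein-coding genes and -1.08 over coding genes with an S5P peak. The lower genes included 5 of 6 ATPases, 5 of 7 alpha subunits, 4 of 7 constitutive beta subunits, 7 of 11 non-ATPase subunits, 3 of 5 activators and inhibitors, 1 of 3 base chaperones and 1 of 4 core chaperones. The 4 immune and thymic beta subunits lay between -0.13 and -0.08 and none was called. Their means over the EdU libraries were 1.31 (Psmb8), 2.32 (Psmb9), 1.21 (Psmb10) and 2.08 RPM (Psmb11). The part of signal level in this was not tested. With libraries centred on the median TSS, 11 of the 47 were lower.

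With DRB at 2 h no gene passed the test in either direction (limma), against 0.621% of all TSSs lower and 0.201% higher. Of the 47 genes, 9 had an unadjusted p under 0.05, limma-voom on recovered reads called 3, and scaling to background windows gave 6. The median difference was -0.12, the same as over all TSSs, and 0.03 with libraries centred on the median TSS. The most negative was Psmc4 at -1.14 (SE 0.37, limma adjusted p = 0.111). Set directly against DRB at 2 h, triptolide had 17 of 47 genes lower and none higher (14.8% of all TSSs lower and 1.21% higher), with a median of -0.66. These were 5 alpha, 3 constitutive beta, 3 ATPase and 5 non-ATPase subunits and 1 base chaperone, and no activator, immune subunit or core chaperone was called. That count was 10 without DRB replicate 1, 7 without DRB replicate 3, 9 without triptolide replicate 1, 9 without replicate 2 and 10 without replicate 3, and was 7 with libraries centred and 8 in a fit of these groups alone. In nascent chromatin none of the 47 genes differed between triptolide and DRB by limma, against 0.577% of all TSSs lower and 0.0873% higher, with 0 by limma-voom and 6 genes at an unadjusted p under 0.05.

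**Figure D3:**
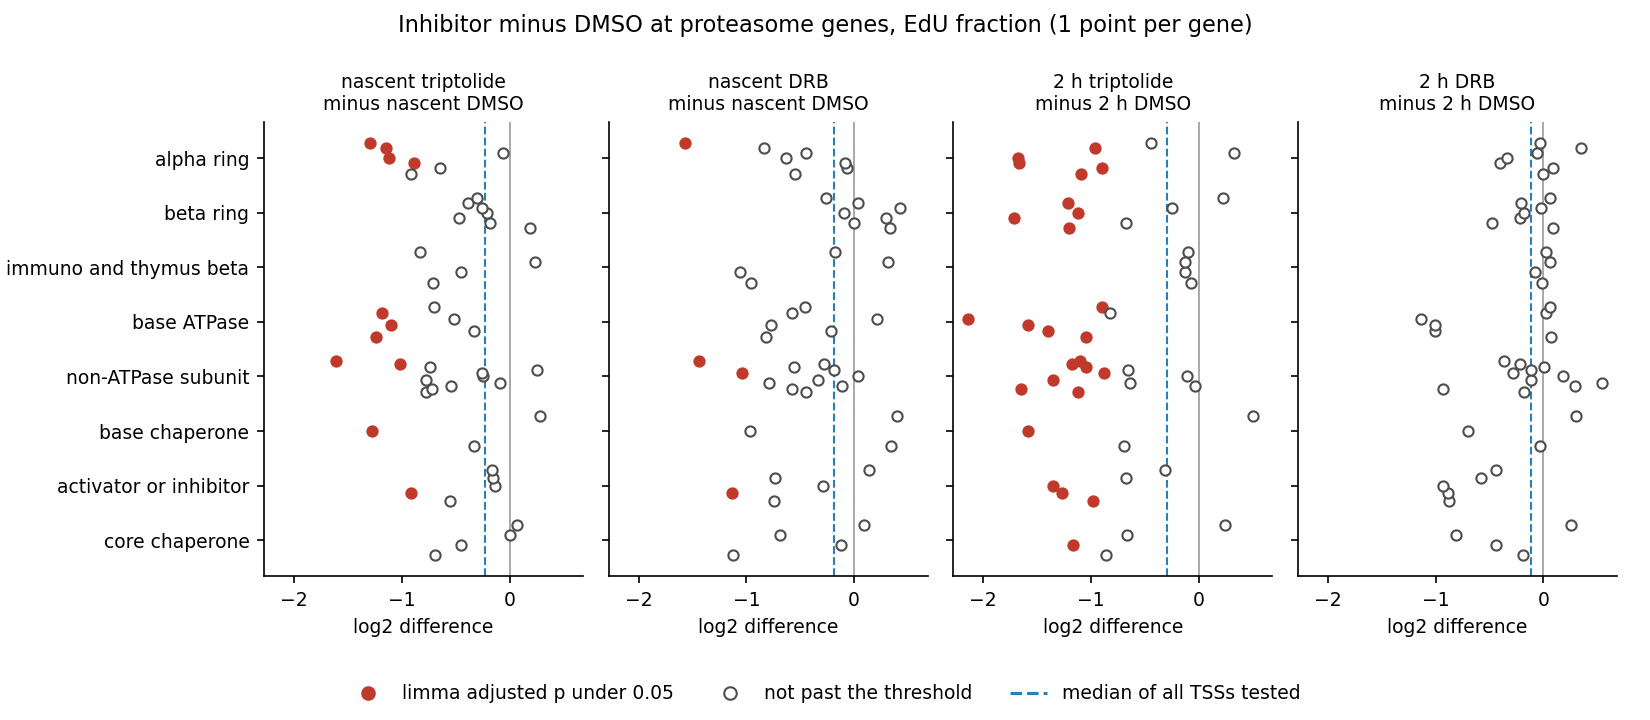
Log2 difference, inhibitor minus DMSO (x axis, 1 point per gene, by role on the y axis), in nascent and 2 h EdU chromatin; filled points passed limma at an adjusted p under 0.05 and the dashed line is the median of all TSSs tested. Filled points number 11, 4, 26 and 0 from left to right and all lie to the left of 0.

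Whether an inhibitor's difference itself changed between nascent chromatin and 2 h was tested as a difference of differences. For neither triptolide nor DRB did a proteasome gene pass (limma). For triptolide the median of the 47 was -0.34, with 6 genes at an unadjusted p under 0.05, against 0.419% of all TSSs lower and 0.0302% higher. For DRB it was 0.16, with 5 genes at an unadjusted p under 0.05, against 0.0134% of all TSSs higher and 0.00671% lower. By limma-voom the count was 0 for both, with libraries scaled to background windows it was 3 for triptolide (Psmb1, Psmb3 and Psmc4), and without nascent DMSO replicate 2 or replicate 3 it was 1.

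The alpha ring was represented in detail by Psma5, Psma7 and Psma8, the windows of Psma5 and Psma7 being shared with another TSS. Psma5, a standard subunit, had 3.74, 3.10 and 1.60 RPM at 2 h with triptolide, 5.24, 8.21 and 13.3 RPM with DRB and 12.9, 11.9 and 8.30 RPM with DMSO. In nascent chromatin it had 1.39, 0.905 and 1.98 RPM with triptolide, 0.946, 3.08 and 3.63 RPM with DRB and 4.61, 4.54 and 3.44 RPM with DMSO. All triptolide libraries were below all DMSO libraries of the same time, and the 2 h DRB libraries overlapped those of DMSO. At 2 h its signal was lower with triptolide than with DMSO (log2 difference -1.68, SE 0.32, limma adjusted p = 6.77e-06), and than with DRB (-1.34, SE 0.32, adjusted p = 0.00111). It was also lower in nascent chromatin with triptolide (-1.12, SE 0.32, limma adjusted p = 0.00951), a call lost without triptolide replicate 2 (adjusted p = 0.075).

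Psma8 is the alpha subunit of the testis-specific proteasome, and its start site was open in these cells too. Its nascent levels were 0.695, 0.905 and 0.540 RPM with triptolide, 0.473, 0 and 0.907 RPM with DRB and 5.19, 2.52 and 2.38 RPM with DMSO. Every DMSO library was above every inhibitor library. At 2 h it had 2.02, 2.17 and 2.13 RPM with triptolide, 3.50, 3.73 and 2.32 RPM with DRB and 3.68, 2.52 and 3.60 RPM with DMSO. Those of triptolide were the lowest, while DRB and DMSO overlapped. It was lower in nascent chromatin with triptolide (-1.30, SE 0.36, limma adjusted p = 0.00764) and with DRB (-1.57, SE 0.36, adjusted p = 0.0047), both lost without DMSO replicate 1 (adjusted p = 0.0834 and 0.0549). Over the chase it was higher with DRB (1.55, SE 0.36, limma adjusted p = 0.000181), and differed by 0.01 with DMSO. Psma7, another standard subunit, had 1.44, 0.621 and 2.66 RPM at 2 h with triptolide, against 6.12, 5.97 and 3.48 RPM with DRB, with no overlap (-1.31, SE 0.34, limma adjusted p = 0.00303). That call was lost without triptolide replicate 2 (adjusted p = 0.0601).

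Among constitutive beta subunits, Psmb3 and Psmb1 help form the ring without carrying an active site. Psmb3 had 4.03, 3.41 and 2.93 RPM at 2 h with triptolide, 14.4, 10.1 and 10.4 RPM with DRB and 16.2, 10.4 and 14.7 RPM with DMSO. Nascent libraries held 3.13, 1.36 and 2.52 RPM with triptolide, 4.73, 5.39 and 3.63 RPM with DRB and 1.73, 7.57 and 2.91 RPM with DMSO. The 2 h triptolide libraries lay in the nascent range, below all other 2 h libraries. Psmb3 was higher at 2 h than in nascent chromatin with DMSO (1.69, SE 0.30, limma adjusted p = 2.08e-06) and with DRB (1.18, SE 0.30, adjusted p = 0.000778). With triptolide the difference was 0.45 (SE 0.30, limma adjusted p = 0.35). At 2 h it was lower with triptolide than with DMSO (-1.72, SE 0.30, limma adjusted p = 1.52e-06) and than with DRB (-1.50, SE 0.30, adjusted p = 0.000123).

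Psmb1 had 1.73, 3.41 and 1.06 RPM at 2 h with triptolide, 7.43, 5.97 and 5.22 RPM with DRB and 7.36, 5.04 and 4.98 RPM with DMSO. At the end of the pulse it had 1.04, 1.36 and 1.26 RPM with triptolide, 1.42, 0.770 and 2.42 RPM with DRB and 0.577, 1.01 and 1.32 RPM with DMSO. The nascent libraries of all treatments were alike in range, and the 2 h DRB and DMSO libraries stood well above them. The difference, 2 h minus nascent, was 1.79 with DMSO (SE 0.34, limma adjusted p = 9.18e-06) and 1.55 with DRB (SE 0.34, adjusted p = 9.3e-05). Triptolide against DMSO at 2 h gave -1.20 (SE 0.34, limma adjusted p = 0.0032). Leaving out triptolide replicate 3 ended that call (adjusted p = 0.0514).

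Psmb8, Psmb9 and Psmb10 are the interferon-induced counterparts of the catalytic subunits, and Psmb11 replaces one of them in the thymus. The window of Psmb9 (chr17:34187501-34188500) also holds the TSS of Tap1 at 34187553. The RefSeq start of Psmb9 at 34187330 lies outside it, so the signal of the 2 genes cannot be told apart. Likewise the window of Psmb8 (chr17:34197001-34198000) does not hold the RefSeq start of that gene at 34198195. Psmb9 had 3.17, 2.48 and 3.19 RPM at 2 h with triptolide, 5.24, 2.24 and 2.90 RPM with DRB and 2.76, 2.52 and 4.70 RPM with DMSO. In nascent chromatin it had 1.74, 0 and 0.540 RPM with triptolide, 1.89, 1.54 and 1.21 RPM with DRB and 1.73, 2.02 and 1.85 RPM with DMSO. At 2 h the 3 treatments overlapped, and nascent triptolide held both the lowest libraries. It was higher at 2 h with triptolide (1.28, SE 0.35, limma adjusted p = 0.00612), a call lost without nascent triptolide replicate 2 (adjusted p = 0.106), and the 2 h difference from DMSO was -0.10 (SE 0.35, adjusted p = 0.879). Psmb11 was higher at 2 h with DRB (0.90, SE 0.36, limma adjusted p = 0.0359), a call lost without nascent DRB replicate 1 or 2 h DRB replicate 2 or 3 (adjusted p up to 0.352). Of 6 interferon-responsive genes, 2 had a nascent peak and 1 an S5P peak.

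The ATPases unfold substrates and open the gate of the core. Psmc4 had 0.864, 0.931 and 0.798 RPM at 2 h with triptolide, 2.62, 2.24 and 3.48 RPM with DRB and 8.58, 7.55 and 5.81 RPM with DMSO. Its nascent levels were 1.04, 0.453 and 0.72 RPM with triptolide, 3.78, 1.54 and 0.907 RPM with DRB and 0, 2.02 and 3.97 RPM with DMSO. At 2 h the treatments formed 3 separate ranges, and 2 h triptolide stayed within the nascent triptolide range. Psmc4 had the most negative triptolide difference of the 47 genes at 2 h (-2.14, SE 0.37, limma adjusted p = 9.49e-07). Its triptolide difference from DRB (-1.01, SE 0.37, adjusted p = 0.0451) was lost in each fit without 1 of the 6 libraries (adjusted p up to 0.177). With DMSO it was higher at 2 h than in nascent chromatin (1.74, SE 0.37, limma adjusted p = 6.06e-05), and with DRB the difference was 0.39 (adjusted p = 0.439).

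Psmc6, the ATPase with the highest mean, had 2.30, 5.28 and 4.25 RPM at 2 h with triptolide, 10.0, 6.72 and 8.41 RPM with DRB and 9.20, 6.47 and 8.30 RPM with DMSO. Nascent libraries held 1.04, 2.26 and 1.08 RPM with triptolide, 1.89, 1.54 and 2.12 RPM with DRB and 2.31, 3.03 and 3.44 RPM with DMSO. The DRB and DMSO libraries overlapped at 2 h and lay above all of triptolide. Its signal was higher at 2 h with triptolide (0.99, SE 0.31, limma adjusted p = 0.0186), with DRB (1.71, SE 0.31, adjusted p = 2.56e-06) and with DMSO (1.19, SE 0.31, adjusted p = 0.00119). The triptolide call was lost without nascent triptolide replicate 1 or 3 or 2 h triptolide replicate 2 or 3 (adjusted p up to 0.145).

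Among non-ATPase subunits, Psmd8 belongs to the lid of the cap. It had 2.88, 4.66 and 2.39 RPM at 2 h with triptolide, 6.12, 6.34 and 5.51 RPM with DRB and 9.81, 9.35 and 5.53 RPM with DMSO. At the end of the pulse it had 0, 0.453 and 0.90 RPM with triptolide, 0, 0.770 and 1.21 RPM with DRB and 4.04, 2.52 and 3.44 RPM with DMSO. Every nascent inhibitor library was below every nascent DMSO library. Psmd8 was the gene with the largest nascent triptolide difference (-1.61, SE 0.34, limma adjusted p = 0.000294), and its call alone among the 11 held when any 1 library was left out. Nascent DRB gave -1.44 (SE 0.34, limma adjusted p = 0.0057), lost without DRB replicate 1 (adjusted p = 0.0628).

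Over the chase, Psmd8 was higher under each treatment: by 1.58 with triptolide (SE 0.34, limma adjusted p = 0.000262), 2.15 with DRB (SE 0.34, adjusted p = 5.79e-08) and 1.07 with DMSO (SE 0.34, adjusted p = 0.00757), the DMSO call being lost without 2 h DMSO replicate 1 (adjusted p = 0.0578). At 2 h it was lower with triptolide than with DMSO (-1.10, SE 0.34, limma adjusted p = 0.00637), lost without DMSO replicate 1 or triptolide replicate 3 (adjusted p up to 0.0518). The 2 h DRB difference was -0.37 (SE 0.34, limma adjusted p = 0.731).

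Psmd3 and Psmd13 are further lid subunits, and Psmd4 is a ubiquitin receptor. Psmd3 had 4.03, 3.10 and 5.58 RPM at 2 h with triptolide, 10.5, 5.60 and 5.22 RPM with DRB and 8.28, 10.1 and 7.19 RPM with DMSO. In nascent chromatin it had 1.74, 1.81 and 1.80 RPM with triptolide, 0.473, 0 and 1.81 RPM with DRB and 2.31, 2.02 and 2.65 RPM with DMSO. Nascent libraries were all below 2 h libraries. With DRB it had the largest difference of the 47 genes between 2 h and nascent (2.28, SE 0.32, limma adjusted p = 4.05e-09).

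Psmd13 had 3.17, 4.03 and 5.05 RPM at 2 h with triptolide, 10.5, 11.6 and 9.28 RPM with DRB and 5.52, 6.83 and 8.30 RPM with DMSO. Its nascent levels were 3.48, 2.26 and 3.06 RPM with triptolide, 0.946, 1.54 and 1.81 RPM with DRB and 2.88, 2.52 and 4.23 RPM with DMSO. DRB libraries were the highest at 2 h and the lowest in nascent chromatin, with no overlap. Over the chase it was higher with DRB (2.25, SE 0.30, limma adjusted p = 6.98e-10), and triptolide was below DRB at 2 h (-1.18, SE 0.30, adjusted p = 0.00286). DRB against DMSO was 0.55 at 2 h and -0.79 in nascent chromatin, with limma adjusted p of 0.454 and 0.12. Psmd4 had 5.21, 10.1 and 4.70 RPM at 2 h with DMSO, against 1.15, 1.01 and 1.06 RPM in nascent DMSO chromatin, with no overlap (1.82, SE 0.34, limma adjusted p = 6.18e-06).

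**Figure D4:**
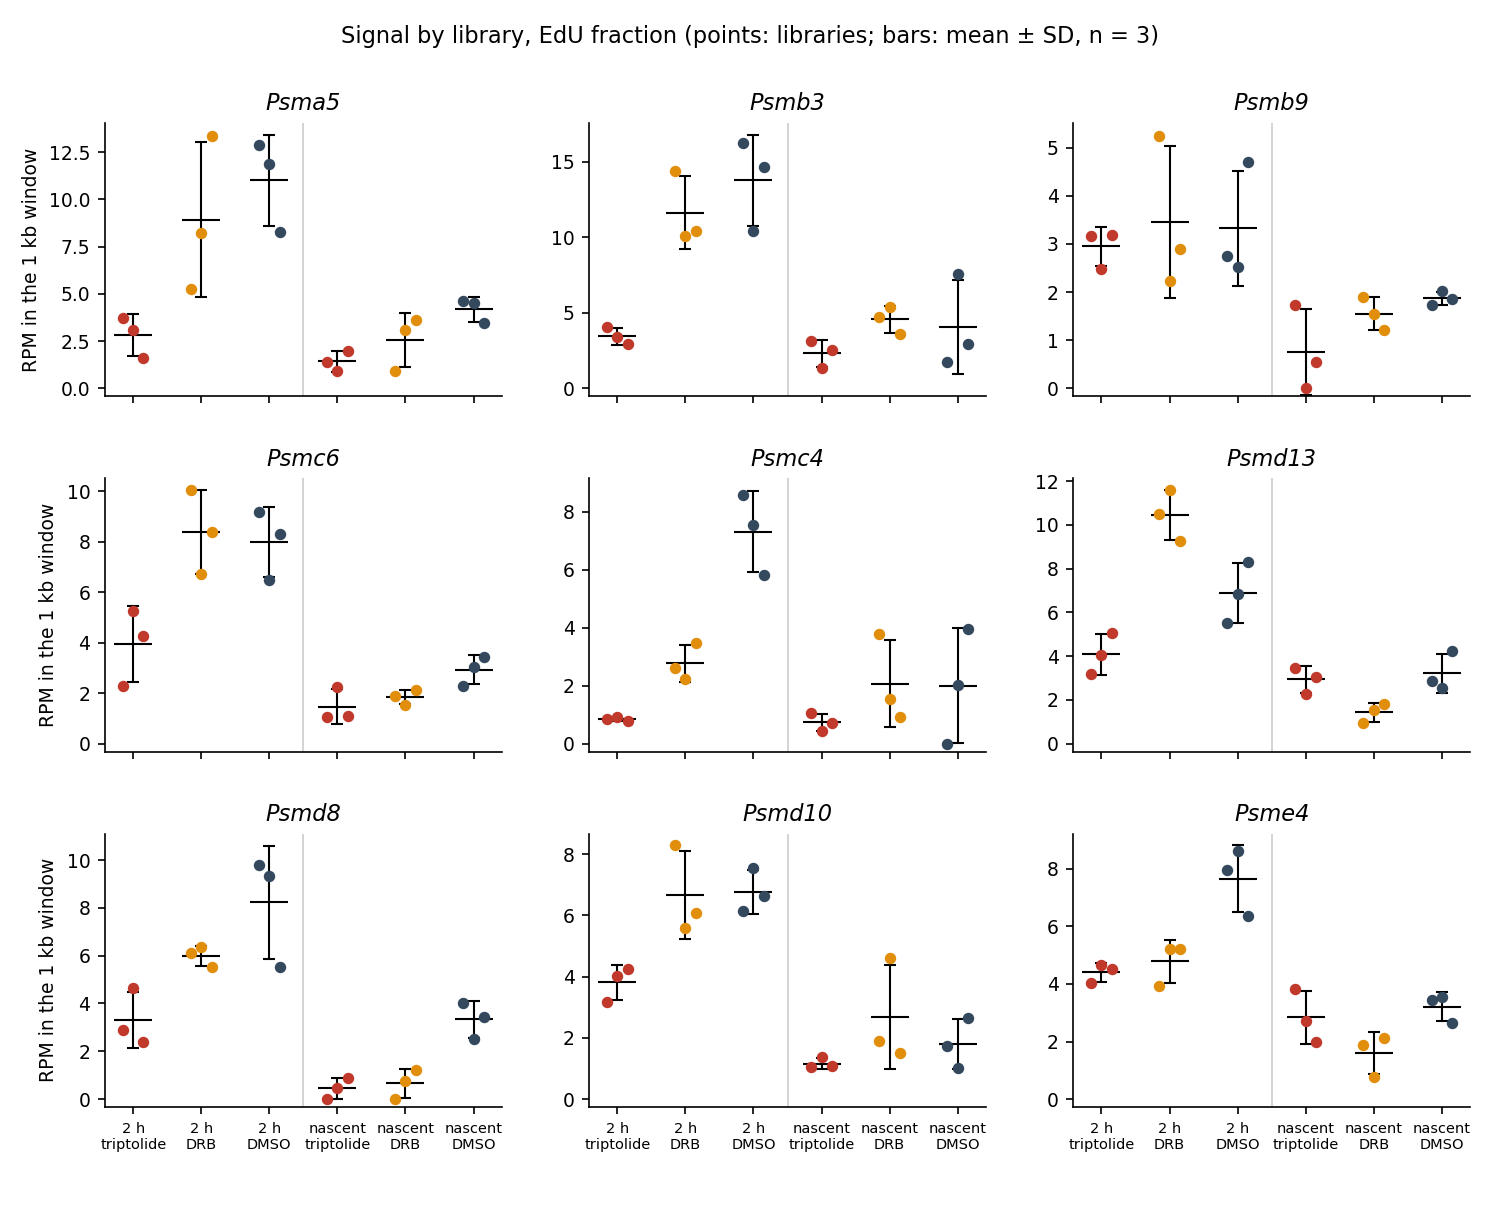
Signal in RPM (y axis) of each EdU library (points) with mean and SD (bars, n = 3) at 9 proteasome genes, the 2 h groups left of the nascent groups and triptolide, DRB and DMSO from left to right within each. Psmb3 and Psmc4 show 2 h triptolide at the level of nascent chromatin, and Psmd8 shows nascent triptolide and DRB near 0.

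Psmd10 (gankyrin) and Psmd5 are chaperones of base assembly. Psmd10 had 3.17, 4.03 and 4.25 RPM at 2 h with triptolide, 8.30, 5.60 and 6.09 RPM with DRB and 6.13, 7.55 and 6.64 RPM with DMSO. Nascent libraries held 1.04, 1.36 and 1.08 RPM with triptolide, 1.89, 4.62 and 1.51 RPM with DRB and 1.73, 1.01 and 2.65 RPM with DMSO. With triptolide all 2 h libraries were above all nascent ones, and the same held for the other treatments. It was higher at 2 h with triptolide (1.15, SE 0.32, limma adjusted p = 0.00679), with DRB (1.14, SE 0.32, adjusted p = 0.00237) and with DMSO (1.51, SE 0.32, adjusted p = 6.12e-05).

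Psmd5 had 2.02, 1.86 and 1.06 RPM at 2 h with triptolide, against 5.82, 9.35 and 5.81 RPM with DMSO. At the end of the pulse it had 1.04, 1.81 and 1.08 RPM with triptolide, against 3.46, 7.07 and 3.70 RPM with DMSO. The ranges did not overlap at either time. The differences were -1.58 at 2 h (SE 0.33, limma adjusted p = 3.98e-05) and -1.27 in nascent chromatin (SE 0.33, adjusted p = 0.00381), the nascent call being lost without DMSO replicate 2 (adjusted p = 0.0618).

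Psme2 is a subunit of the interferon-induced activator PA28, and Psme4 (PA200) is a nuclear activator. Psme2 had 1.42, 0.770 and 2.42 RPM in nascent chromatin with DRB, against 4.04, 4.54 and 4.5 RPM with DMSO, with no overlap (-1.13, SE 0.32, limma adjusted p = 0.0253). That call was lost without DMSO replicate 2 or 3 or DRB replicate 1 or 2 (adjusted p up to 0.122). Psme4 had 4.03, 4.66 and 4.52 RPM at 2 h with triptolide, 3.93, 5.22 and 5.22 RPM with DRB and 7.97, 8.63 and 6.36 RPM with DMSO. The inhibitor libraries overlapped each other and lay below DMSO, but neither difference passed the test (-0.67 with triptolide, limma adjusted p = 0.0879, and -0.58 with DRB, adjusted p = 0.435).

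Psmg4, a chaperone of the alpha ring, had a 2 h signal of about the same range under all treatments. It had 5.76, 4.97 and 6.65 RPM at 2 h with triptolide, 7.86, 3.36 and 7.25 RPM with DRB and 5.52, 3.60 and 5.25 RPM with DMSO. In nascent chromatin it had 2.09, 2.26 and 2.34 RPM with triptolide, 3.78, 2.31 and 1.21 RPM with DRB and 3.46, 1.51 and 1.59 RPM with DMSO. The treatments overlapped at both times. It was higher at 2 h with triptolide (1.07, SE 0.32, limma adjusted p = 0.0128), with DRB (1.06, SE 0.32, adjusted p = 0.00447) and with DMSO (0.90, SE 0.32, adjusted p = 0.0204), and triptolide against DMSO at 2 h was 0.24 (SE 0.32, adjusted p = 0.656). The DMSO call was lost in 4 of 6 fits, without nascent DMSO replicate 2 or 3 or 2 h DMSO replicate 1 or 3 (adjusted p up to 0.0952). The triptolide call was lost without 2 h triptolide replicate 3 (adjusted p = 0.0708) and the DRB call without nascent DRB replicate 3 (adjusted p = 0.0692).

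Psmf1, which encodes the proteasome inhibitor PI31, had next to no signal at the TSS used. All 3 libraries of 2 h DRB were without a read, and the highest of the 18 values was 1.54 RPM, in nascent DRB replicate 2. That TSS is 13 bp from the gene start, but the start of the RefSeq promoter, at chr2:151741310, lies 2876 bp from it. No other TSS region was nearer to the promoter start, and the signal there was not read here. Within 1000 bp of that promoter start the 1 h, 2 h, steady-state and S5P lists held a peak.

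The spike-in libraries repeat the comparison of 2 h with nascent chromatin without inhibitor, in other samples and over 5 kb regions. Of the 47 genes 20 were higher at 2 h and none was lower, against 30.1% of all 30618 TSSs higher and 1.35% lower. The median log2 difference was 1.07, beside 0.79 over all TSSs and 1.08 over protein-coding genes. Psmb3 had deposited log2 values of 7.97 and 7.77 at 2 h, against 5.37 and 6.45 in nascent chromatin, a difference of 1.96 (SE 0.53, limma adjusted p = 0.00294). Psmd10 had 6.19 and 5.82 at 2 h, against 3.82 and 4.43 (1.88, SE 0.55, limma adjusted p = 0.00554), and the alpha subunit Psma4 had 7.0 and 7.08, against 4.51 and 5.86. Both 2 h libraries were above both nascent libraries in these 3 genes, as in most of the 47. The share of all TSSs with that order was not counted. Psmf1 stood at 1.17 and 2.65 at 2 h, against 3.58 and 3.34 (-1.55, not past the threshold).

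With 2 libraries a side these calls were fragile: leaving out either 2 h library gave 0 calls, leaving out nascent replicate 2 gave 44, and a fit without a filter on low values gave 0. With libraries centred on the median TSS, 17 genes were higher and 3 (Psmb11, Psmd7 and Psmf1) lower. The sources used here do not give how the S2 reads entered the values. Of the 26 genes higher with DMSO in the inhibitor experiment, 16 (61.5%) were also called here, which is 80.0% of the 20. This overlap was not counted over all TSSs, and with 26 and 20 genes called much sharing is expected from the counts alone.

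The unbound fraction shows the same start sites in bulk chromatin, where the median proteasome gene lay at 4.09 to 5.32 RPM in the 6 groups. Between 2 h and nascent DMSO no gene passed the test in unbound chromatin by limma (0 by limma-voom too, 5 with an unadjusted p under 0.05, and 0% of all TSSs called). In nascent samples with triptolide Psma1 was higher (0.71) and Psmc4 lower (-0.61), against 0.709% of all TSSs higher and 1.53% lower. Psma1, an alpha subunit, had 8.68, 7.5 and 6.27 RPM with triptolide and 7.76, 7.54 and 7.5 RPM with DRB, against 5.23, 3.40 and 4.01 RPM with DMSO. Both inhibitors were above DMSO without overlap, and DRB gave 0.74, the only proteasome call with DRB there (0.267% of all TSSs higher and 0.637% lower). Each of the 3 calls was lost in a fit of those groups alone. The DRB call was also lost without DMSO replicate 2 or any 1 DRB library, the Psma1 call with triptolide without DMSO replicate 2 or triptolide replicate 1, and that of Psmc4 without DMSO replicate 1 or 2 or triptolide replicate 2 or 3.

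At 2 h, 7 genes were lower with triptolide than with DMSO in unbound chromatin (12.2% of all TSSs lower and 2.26% higher): Psmc4, Psmb3, Psme3, Psmd5, Psmd4, Psmd3 and Psmd8. Psmc4 had 5.53, 3.78 and 3.09 RPM with triptolide, against 8.81, 7.81 and 6.11 RPM with DMSO (-0.76, limma adjusted p = 0.00146). Psmb3 had 8.17, 7.56 and 6.25 RPM with triptolide, against 11.4, 15.6 and 11.2 RPM with DMSO (-0.71, limma adjusted p = 0.000467). Neither overlapped, and only these 2 calls held when any 1 library was left out. The count was 4 without DMSO replicate 1, 2 without DMSO replicate 2, 3 without triptolide replicate 2, 4 without triptolide replicate 3, and 21 with libraries scaled to background windows. Of the 26 genes lower in EdU chromatin, 6 (23.1%) were among these 7 (85.7%). The same overlap over all TSSs was not counted, and with 26 genes called in EdU chromatin some sharing is expected from the counts alone. With DRB at 2 h none passed (limma), while limma-voom gave 1 and 5 had an unadjusted p under 0.05, against 0.769% of all TSSs higher and 0.713% lower. That count was 1 without DMSO replicate 1 or DRB replicate 2.

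Set against unbound chromatin of the same treatment, EdU chromatin showed 34 of 47 proteasome genes lower and none higher in nascent DMSO samples (43.2% of all TSSs lower and 4.37% higher), with a median of -0.91 beside -0.42 over all TSSs and -0.88 over protein-coding genes. Psmc4 had the largest deficit (-2.11), followed by Psmd3 (-1.87) and Psmb3 (-1.75), while Psmb10, Psmb11, Psmc1, Psmd12 and Psma8 lay between 0.00 and 0.12. At 2 h no gene differed between the fractions by limma, as by limma-voom (0), with 2 at an unadjusted p under 0.05 and 0% of all TSSs called, and the median was -0.07. Same-numbered EdU and unbound libraries may come from 1 sample, and with these pairs as blocks 21 genes were lower in nascent DMSO chromatin.

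The nascent triptolide difference was also tested between the fractions, as EdU minus unbound. It was more negative in EdU chromatin at 9 of 47 genes and less negative at none, against 7.09% of all TSSs more negative and 0.331% less negative, with a median of -0.51 beside -0.24 over all TSSs. The genes were Psma1, Psma5, Psma7, Psma8, Psmc5, Psmc6, Psmd7, Psmd8 and Psme2. The count was 5 without unbound DMSO replicate 2, 4 without unbound triptolide replicate 1, 2 with libraries centred on the median TSS and 1 with the EdU and unbound pairs as blocks.

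The deposited peak lists give the first list in which a proteasome start site has a peak. A peak within 1000 bp of the TSS was listed for 34 of 47 genes (72.3%) in nascent chromatin, 39 (83.0%) in the 30 min list, 41 (87.2%) in the 1 h list, 44 (93.6%) in the 2 h list and 46 (97.9%) in the steady-state list. The shares of protein-coding genes in the same lists were 49.2%, 57.3%, 61.2%, 67.1% and 72.5%. The lists held 47341 (nascent) to 166636 (steady state) peaks, hold no heights and have no replicates, so no test was made and their depth is unknown.

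Beyond the 34 nascent genes, 7 first appeared at 30 min (Psmb4, Psmb5, Psmb9, Psmc5, Psmd8, Psmd10 and Psmg1), 3 at 1 h (Psmb7, Psmb8 and Psmb11), Psmg3 at 2 h and Psmd9 at steady state. All 7 alpha subunits with a TSS, 5 of 6 ATPases and 10 of 11 non-ATPase subunits were in the nascent list, against 4 of 7 constitutive and 1 of 4 immune or thymic beta subunits. Of the catalytic subunits Psmb5, Psmb6 and Psmb7, only Psmb6 was. Peaks were in all 5 lists at 31 genes. Some genes were absent from a list after an earlier one held them. These were Psma1 and Psmb2 at 30 min, Psmb10, Psmc5 and Psmg1 at 1 h, and Psmb11 at 2 h. A first list is thus not a firm time of opening.

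**Figure D5:**
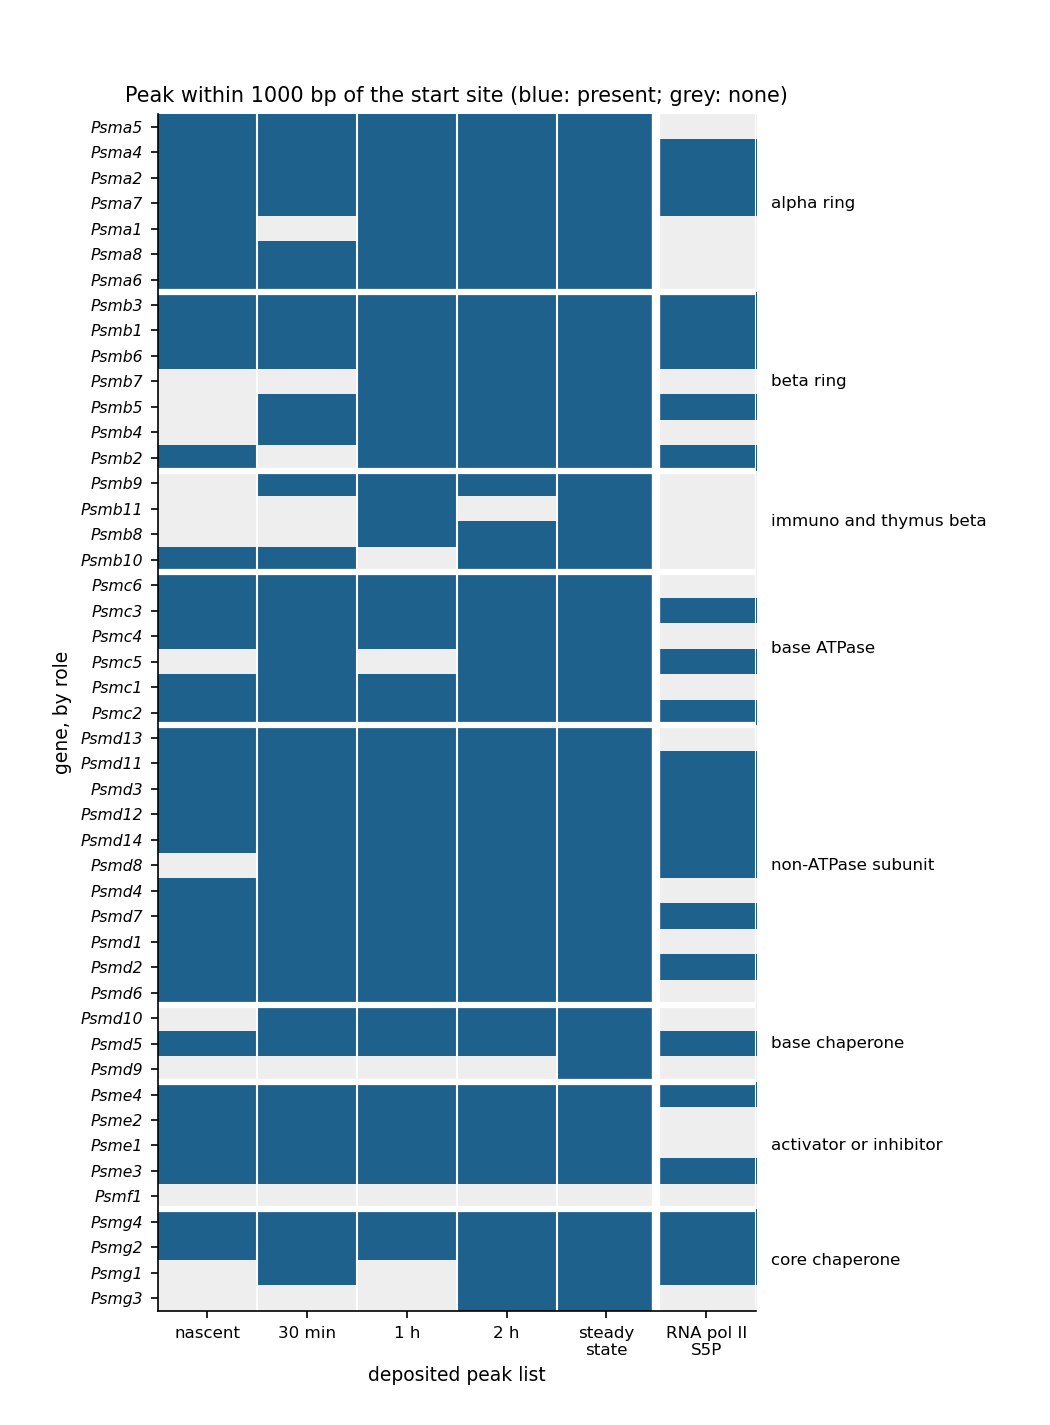
Presence (blue) or absence (grey) of a peak within 1000 bp of the TSS at 47 proteasome genes (rows, by role) in 6 deposited lists (columns). Grey cells in the nascent column lie mostly in the beta ring, the immune and thymic subunits and the chaperones, and Psmf1 is grey throughout.

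RNA polymerase II S5P, which marks polymerase at the start of genes, had a peak at 24 of 47 genes (51.1%, against 25.7% of protein-coding genes). Counting peaks of at least 300 bp alone, it was 11 of 47 (23.4%, against 17.7%). They included 5 of 7 constitutive beta, 7 of 11 non-ATPase, 3 of 7 alpha, 3 of 6 ATPase and 3 of 4 core chaperone genes, 2 of 5 activators and inhibitors, 1 of 3 base chaperones, and none of the 4 immune and thymic subunits. Of the 24 genes, 20 had a nascent peak, as had 14 of the 23 without S5P. At 2 h, 16 of the 24 with S5P were lower with triptolide than with DMSO (median -1.13), and 10 of the 23 without (median -0.66). Of 4650 protein-coding genes with an S5P peak, 3083 were lower, with a median of -1.08. By nascent peak the split was 24 of 34 (median -1.07) and 2 of 13 (median -0.32). By position it was 9 of 13 genes with another TSS within 1 kb and 17 of 34 without. These splits were not tested, and those by nascent peak and by position were not made over all protein-coding genes. The genes of lowest mean, Psmf1 (0.230 RPM), Psmd9 (0.770 RPM) and Psmg3 (1.15 RPM), are among the 13 without a nascent peak. The part of signal level in that split was not tested.

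Other genes of the ubiquitin and proteasome pathway were read from the same fits, 28 of 31 with a TSS. Over the chase 11 of 28 were higher with triptolide, 24 with DRB and 22 with DMSO, with medians of 0.69, 1.28 and 1.15, and none was lower. Over all TSSs 14.1%, 35.1% and 31.2% were higher, and the medians of coding genes with an S5P peak, which 21 of the 28 had, were 0.63, 1.14 and 1.02. Against DMSO, 21 of 28 were lower with triptolide at 2 h (median -1.10) and 12 in nascent chromatin (median -0.78), against 28.6% and 11.6% of all TSSs and medians of -1.08 and -0.69 over coding genes with an S5P peak. They included Vcp, an ATPase that extracts ubiquitylated proteins from complexes (-1.78 at 2 h), Nfe2l1, the factor that induces proteasome genes when activity is short (-1.51), the ubiquitin receptor Adrm1 (-1.47) and the core maturation factor Pomp (-0.92). The cap subunit Sem1 (-0.19 at 2 h) did not pass the test. With DRB 2 were lower in nascent chromatin, the ubiquitin fusion gene Rps27a (-1.14) and Vcp (-1.13). Beside these, 3.37% of all TSSs and 355 of 4650 coding genes with an S5P peak were lower. The window of Rps27a is also that of another TSS. At 2 h none of the 28 passed with DRB (limma), against 0.621% of all TSSs lower and 0.201% higher, and 7 had an unadjusted p under 0.05.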

How the data were processed

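Per the submitters' processing notes, reads were processed with Trim Galore 0.4.2 and Bowtie2 2.2.6.2 on mm10; the sources used here do not name the peak caller. Per the file headers, the authors deposited log2(RPM + 1) for 36 libraries of the inhibitor experiment, in windows of 1 kb that start 500 bp apart, and log2 values of 4 spike-in libraries in 5 kb TSS regions. The deposited peak lists hold positions only, in other words no score.

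RPM was recovered from the log2 values, and 100% of values were whole reads within 0.1 read. TSSs were named from RefSeq genes of the same build, with at most 1000 bp to a gene start. A TSS needed a value above 0 in 3 libraries (in the spike-in 2) to be tested with limma 3.58.1 (moderated, with a trend; R 4.3.3) on the deposited log2 values, with 1 fit per fraction, 1 joint fit for EdU against unbound and 1 for the spike-in. Benjamini-Hochberg adjustment ran over all TSSs in each of 20 comparisons, and the threshold was 0.05. The unit is RPM, so limma-voom on the recovered reads is an alternative only. The median SE of a proteasome gene was 0.34 for EdU, 0.18 for unbound and 0.52 for spike-in libraries. Reads have no molecular identifiers, so counts carry counting error that is not of independent molecules. No 2 libraries were identical.

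Library values are printed for the 3 genes with the largest called difference in each EdU comparison and, in each role, the gene with the highest EdU mean; genes beyond that rule were chosen after their values were seen. The members and lists were chosen with earlier results of these data known, and the pathway and marker lists are therefore descriptions. Alternatives were pseudocounts of 0.5 and 2, filters, centring on the median TSS, scaling to background windows, fits of the compared groups alone, a replicate block, limma-voom and leaving out each library. Tables were made in pandas 2.3.3 and numpy 2.4.6 (Python 3.11.15), and plots in matplotlib 3.10.9. S5P of EdU-labelled chromatin was not analysed here. Values of some genes of the pathway list are not reported here.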

Additional observations from a re-analysis of the deposited data

Results flagged for a closer look

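The nascent triptolide difference (triptolide minus DMSO) differed between the EdU fraction and the unbound fraction at 9 proteasome genes, by the test of that difference itself (limma, adjusted over all TSSs). The difference of differences, EdU minus unbound, was -1.62 at Psma1, -1.56 at Psmd8, -1.51 at Psma8, -1.48 at Psmc5, -1.34 at Psma7, -1.22 at Psmd7, -1.12 at Psmc6, -1.11 at Psma5 and -0.99 at Psme2, all on the log2(RPM + 1) scale and all more negative in EdU chromatin. Psma1 stood apart in that its signal was called higher with triptolide in unbound chromatin (0.71). Neither Psma1 nor Psmc6 was called in EdU chromatin. The calls of Psma1, Psma8 and Psmd8 held when any 1 library was left out. The count of 9 was 2 with libraries centred on the median TSS and 1 with the EdU and unbound pairs as blocks. The unbound libraries of this comparison were deeper than all its EdU libraries, except nascent DMSO unbound replicate 2 (2.35 M reads). The part of depth in these values was not tested.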

How the results depend on the processing

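Counts are of the 47 genes past the threshold, with the count as reported in parentheses. Of 209 counts under other settings, 170 stayed within 1.5 times; of 1453 settings of 99 named values, 1183 kept their call, 270 lost it and 0 reversed. The cause of the moves below was not tested, except that fits of fewer groups or libraries have less data.

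Centring on the median TSS gave 1 (7), 15 (28) and 9 (26) for 2 h against nascent with triptolide, DRB and DMSO, 2 (11) and 2 (4) for nascent triptolide and DRB against DMSO, 11 (26) for 2 h triptolide, 7 (17) for 2 h triptolide against DRB, 20 (34) for EdU against unbound in nascent DMSO and 2 (9) for the EdU minus unbound triptolide difference. Scaling to background windows gave 22 (7) and 43 (28) for 2 h against nascent with triptolide and DRB, 6 (0) for 2 h DRB, 3 (0) for the change of the triptolide difference with time and 21 (7) for 2 h triptolide in unbound chromatin. Fits of the compared groups alone gave 4 (7) and 18 (28) for 2 h against nascent with triptolide and DRB, 2 (11) and 0 (4) for nascent triptolide and DRB, 8 (17) for 2 h triptolide against DRB and, in unbound chromatin, 0 (2), 0 (1) and 2 (7) for nascent triptolide, nascent DRB and 2 h triptolide.

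Without a filter the counts were 7 (11) and 2 (4) for nascent triptolide and DRB, 1 (2), 0 (1) and 1 (0) for nascent triptolide, nascent DRB and 2 h DRB in unbound chromatin, and 0 (20) in the spike-in. A minimum mean of 1 RPM gave 1 (0) for 2 h DRB in unbound chromatin. Limma-voom gave 0 (4) for nascent DRB, 3 (0) for 2 h DRB and 1 (0) for 2 h DRB in unbound chromatin. A pseudocount of 2 gave 3 (0) for 2 h DRB, and one of 0.5 gave 11 (17) for 2 h triptolide against DRB. Counting only S5P peaks of at least 300 bp left 11 of 24 genes with one.

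Deviations of same-numbered libraries from their group means correlated at -0.0233 to 0.0392 between EdU groups, against -0.0382 to 0.0272 for other numbers. Between EdU and unbound groups the correlations were 8.53e-05 to 0.135, against -0.115 to 0.0145. Between unbound groups they were -0.0192 to 0.166, against -0.141 to 0.106. The main fits did not take the numbers as pairs, although EdU and unbound libraries of 1 number may belong together. With the replicate number as a block the count was 1 (0) for 2 h DRB in unbound chromatin and 0 (20) in the spike-in, and the other counts stayed within 1.5 times, for example 26 (26) for 2 h triptolide and 11 (11) for nascent triptolide. EdU and unbound pairs as blocks, chosen after seeing the data, gave 21 (34) and 1 (9).

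Leaving out 1 library at a time gave 3 to 7, 20 to 27 and 18 to 23 for 2 h against nascent with triptolide, DRB and DMSO, 4 to 9 and 1 to 4 for nascent triptolide and DRB, 19 to 23 and 0 to 0 for 2 h triptolide and DRB, 0 to 0 and 7 to 14 for triptolide against DRB in nascent chromatin and at 2 h, and 0 to 1 and 0 to 0 for the changes of the triptolide and DRB differences. In unbound chromatin it gave 0 to 0 for 2 h against nascent, 1 to 3 and 0 to 1 for nascent triptolide and DRB, and 2 to 9 and 0 to 1 for 2 h triptolide and DRB. EdU against unbound gave 30 to 32 in nascent DMSO and 0 to 0 at 2 h, the EdU minus unbound triptolide difference 4 to 10, and the spike-in 0 to 44. With 1 library left in a spike-in group, its spread is assumed to be that of the other group. The median gene had 2 to 17 reads per EdU library and its difference an SE of 0.34, which limits the size of a change that can be called.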
